A study of Mus musculus with 12 samples.

Results

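The genes described here are the direct transcriptional targets of canonical Wnt/β-catenin signaling and the DNA-binding Tcf factors, followed in the embryonic mouse pancreas after deletion of β-catenin. The 10 genes are Axin2, Lef1, Tcf7, Tcf7l2, Nkd1, Lgr5, Sp5, Rnf43, Znrf3 and Notum, and every Affymetrix probe set that the platform annotation assigns to one of them alone was taken, 19 of the 45037 probe sets tested. These cover 9 of the 10 genes. Tcf7 is not analysed here. Each of 12 pancreata was hybridised to its own MOE430 2.0 array: 4 β-catenin KO and 2 wildtype pancreata at E14.5, and 4 KO and 2 wildtype at E16.5. The KO pancreata are Pdx1Cre/+; beta-catenin flox/flox, in which the Pdx1 promoter drives Cre recombinase in the pancreatic epithelium, and the embryos of both genotypes came from matings of Pdx1Cre/+; beta-catenin flox/+ mice. Whether a given wildtype embryo carried Cre or a floxed allele was not stated, and mesenchyme, vessels, nerves and blood in the same organ lie outside the Cre driver's domain. Within the epithelium, the authors considered mosaic Cre expression likely and reported β-catenin in nearly all of the preserved acini. The comparison asks which targets of β-catenin and Tcf respond to loss of β-catenin before the exocrine gland becomes visibly small, at E14.5, and after it, at E16.5.

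In canonical Wnt signaling, a Wnt ligand bound to Frizzled and Lrp5 or Lrp6 stops a cytoplasmic complex from marking β-catenin for degradation, and β-catenin then enters the nucleus and binds Tcf7l2, Lef1 or Tcf7 on DNA. Without β-catenin these factors recruit Groucho (Tle) corepressors. Several of the most general targets damp the pathway that induces them, which is why their transcripts are widely read as a gauge of its activity: Axin2 scaffolds the degradation complex, Nkd1 binds Dishevelled, Notum strips an acyl group from secreted Wnt, and Rnf43 and Znrf3 remove Frizzled from the cell surface. Lgr5 is a receptor for R-spondins, which take Rnf43 and Znrf3 off the membrane, and Sp5 is a zinc finger repressor of other Wnt targets. β-catenin is also a part of the cadherin adhesion complex, so its loss in an epithelium is not a loss of Wnt signaling alone.

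The 250 bases before the RefSeq transcription start are shown for 3 of the genes: Sp5, whose KO and wildtype values did not overlap on either day, Axin2, the most used readout of the pathway, and Rnf43, which had the lowest KO mean at both days. The strings CTTTGAT and CTTTGA, the core letters of Tcf binding sites, were sought on both strands (ATCAAAG and TCAAAG in reverse), and each match of the longer string contains the shorter. Matches are in capitals. All 3 windows are on the + strand of GRCm38.p6, at chr2:70474673-70474922 (Sp5), chr11:108920099-108920348 (Axin2) and chr11:87662837-87663086 (Rnf43). The Axin2 window lies inside the RefSeq span of its gene, and Rnf43 has another RefSeq start that is not shown.

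Sp5: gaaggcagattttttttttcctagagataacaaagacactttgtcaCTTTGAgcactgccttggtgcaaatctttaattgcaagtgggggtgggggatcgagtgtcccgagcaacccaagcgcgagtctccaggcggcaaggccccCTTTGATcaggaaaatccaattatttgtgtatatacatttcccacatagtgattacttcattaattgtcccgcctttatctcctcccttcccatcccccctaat

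Axin2: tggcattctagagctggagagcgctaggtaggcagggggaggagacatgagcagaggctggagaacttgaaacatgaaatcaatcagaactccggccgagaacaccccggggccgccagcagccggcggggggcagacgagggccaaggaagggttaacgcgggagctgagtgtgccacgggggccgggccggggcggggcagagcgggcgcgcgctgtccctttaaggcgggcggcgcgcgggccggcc

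Rnf43: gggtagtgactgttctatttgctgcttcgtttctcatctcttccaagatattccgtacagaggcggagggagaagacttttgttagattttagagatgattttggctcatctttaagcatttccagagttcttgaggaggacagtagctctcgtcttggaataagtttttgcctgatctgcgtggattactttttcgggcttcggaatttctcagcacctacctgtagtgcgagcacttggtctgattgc

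The Sp5 window holds CTTTGA at -204 and CTTTGAT at -104 relative to the start, and the Axin2 and Rnf43 windows hold neither. RefSeq windows were at hand for 13 starts of 7 of the genes. The longer string was in 1 of the 13, that of Sp5, against 3.21% of 32851 mouse promoter windows of the same length, and the shorter in 2 of the 13, those of Sp5 and of 1 of 4 Lef1 starts, against 13.8%. A match is a description of these letters only.

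Values are linear ratios to the mean of the 2 wildtype pancreata of the same day, so that 1 is the wildtype mean. How abundant a transcript was, and how it moved between the days, cannot be read from them. A probe set at background and one that is measured without change look alike. Ctnnb1, the deleted gene, has 3 probe sets, whose place relative to the floxed exons was not established. On 1450008_a_at the E14.5 ratios were 0.701 to 0.955 in KO and 0.987 and 1.01 in wildtype, and the E16.5 ratios 0.620 to 0.996 in KO and 0.703 and 1.30 in wildtype. On 1430533_a_at they were 1.11 to 1.31 in KO and 0.972 and 1.03 in wildtype at E14.5, and 0.662 to 0.709 in KO and 0.731 and 1.27 in wildtype at E16.5. The third, 1420811_a_at, had KO ratios between 0.845 and 1.05 over the 2 days. None of the 3 passed on either day (limma adjusted p = 0.152 to 0.920). The RNA was that of the whole organ, in which fewer cells of a type and less RNA per cell cannot be told apart. The middle of each array lay close to the wildtype mean, with array medians of -0.04 to 0.09 on the log2 scale. The interquartile range of the log2 ratios was 0.199 to 0.414 in KO arrays and 0.110 to 0.151 in wildtype arrays. These ranges are not alike measures of spread, because each wildtype ratio is divided by a mean that includes its own array. That division draws wildtype ratios toward 1.

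None of the 19 probe sets passed on either day. With limma, p values adjusted over all 45037 probe sets and a limit of 0.05, 0 of 19 passed at E14.5, where 0.0111% of all probe sets did, and 0 of 19 at E16.5, where 2.62% did. Before adjustment, 1 of 19 was under 0.05 at E14.5 (Rnf43), against 6.86% of all probe sets, and 1 of 19 at E16.5 (Tcf7l2 on 1429427_s_at), against 16.6%. The shares among the 19 are thus near or under those of the whole array. Of the log2 fold changes, KO over wildtype, 10 were positive and 9 negative at E14.5, with a median of 0.02 (0.02 over all probe sets). At E16.5 12 were positive and 7 negative, with a median of 0.07 (0.03 over all). Their typical size was also that of the array, with a median absolute log2 fold change of 0.11 (0.10 over all probe sets) for the earlier day and 0.14 (0.13 over all) for the later. The plot of fold changes with intervals shows how much the data leave room for. The 95% intervals lay inside a log2 change of ±1 for 17 of 19 probe sets at E14.5 and 15 of 19 at E16.5. Over all 45037 probe sets this held for 42093 and 40740. Log2 fold changes under 0.5 in size made up 89.5% of the 19 at E14.5 (95.1% over all). At E16.5 they made up 78.9%, or 15 of 19 (90.2% over all). None of the larger changes passed, and a share over 19 probe sets moves in large steps. Where an interval spans 0, the values of 4 KO and 2 wildtype pancreata are compatible with no change and with any size within it. The intervals are not adjusted over the array.

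**Figure D1:**
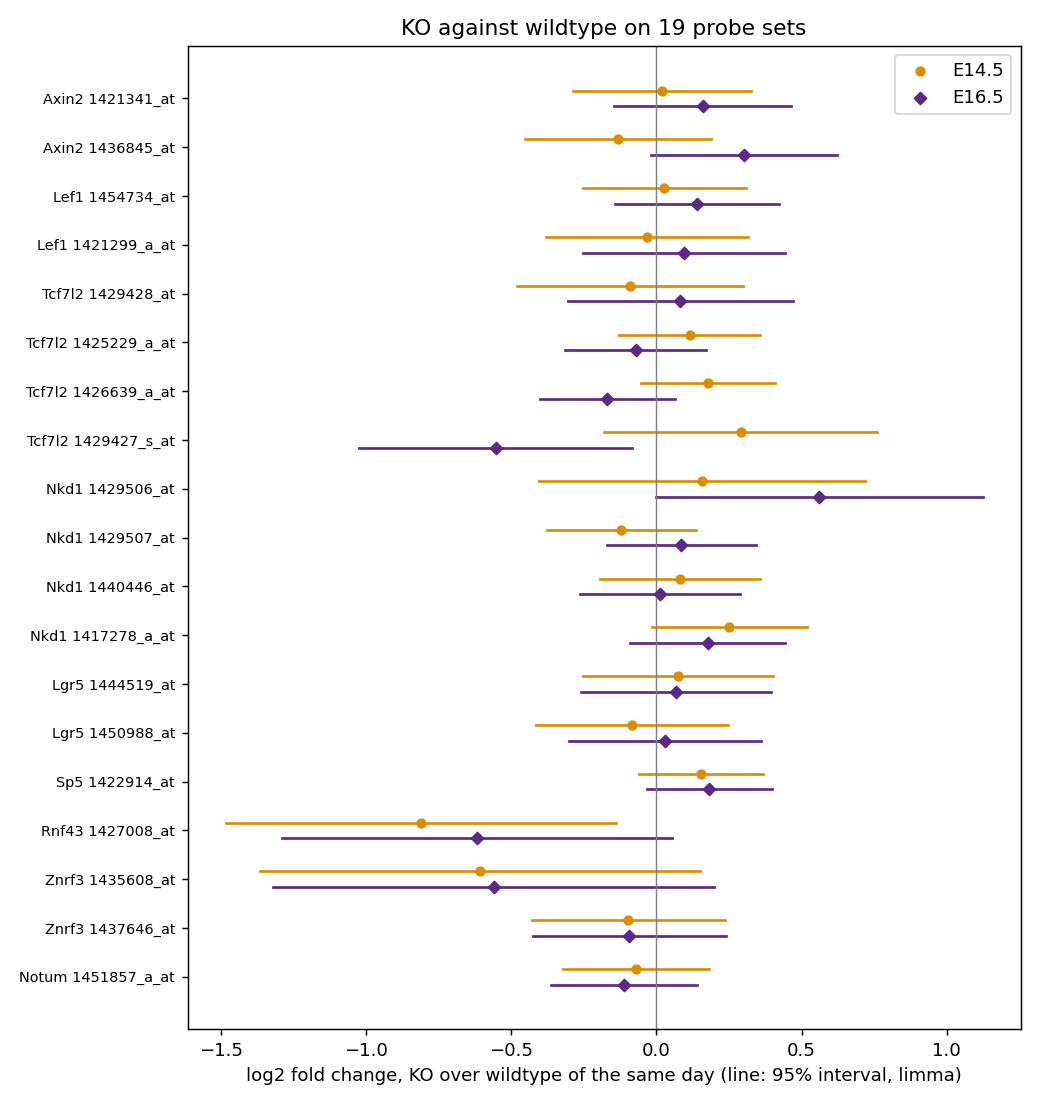
Log2 fold change of KO over wildtype for the 19 probe sets (x axis, log2 scale) at E14.5 (circles) and E16.5 (diamonds), with 95% limma intervals as lines. Most intervals cross 0, and Rnf43 at E14.5 and Tcf7l2 1429427_s_at at E16.5 do not, although neither passed after adjustment over the array.

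Axin2 (chr11:108917828-108950783), the scaffold of the degradation complex, was close to the wildtype mean on the first of its 2 probe sets. On 1421341_at the KO ratios at E14.5 were 1.08, 1.17, 0.966 and 0.863, against 1.02 and 0.983 in wildtype, and the groups overlapped. The E16.5 ratios, 1.28, 1.06, 1.03 and 1.09 in KO and 1.11 and 0.889 in wildtype, overlapped as well. The KO means of 1.02 ± 0.133 and 1.11 ± 0.110 (SD, n = 4) gave log2 fold changes of 0.02 (SE 0.14) and 0.16 (SE 0.14), with 95% intervals that as ratios ran from 0.820 to 1.25 and from 0.904 to 1.38 (limma adjusted p = 0.993 and 0.660). A KO level below 0.820 of wildtype at E14.5, or below 0.904 at E16.5, would thus lie outside the interval on this probe set. On 1436845_at the E14.5 KO mean was 0.917 ± 0.120 and the E16.5 one 1.22 ± 0.113 (SD, n = 4), with intervals of 0.730 to 1.14 and 0.986 to 1.54 as ratios. Over the 12 arrays the log2 ratios of the 2 Axin2 probe sets were only loosely related (r = 0.142, across arrays that share the division by the day's wildtype mean).

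Nkd1 (chr8:88521342-88594887), the Dishevelled-binding inhibitor, had KO means above 1 on 3 of its 4 probe sets at E14.5 and on all 4 at E16.5. The highest single values of all 19 probe sets were among these: on 1429506_at the E16.5 KO ratios were 1.10, 2.01, 1.77 and 1.15, against 1.17 and 0.830 in wildtype. Pancreata KO_541J and KO_541L were high there, and the other 2 KO lay below the higher wildtype pancreas. The mean of 1.51 ± 0.454 (SD, n = 4) corresponds to a log2 fold change of 0.56 (SE 0.26, limma adjusted p = 0.302), which ran from 0.31 without WT_622A to 0.81 without WT_628G. At E14.5 the same probe set read 1.404, 0.881, 1.09 and 1.13 in KO and 0.940 and 1.06 in wildtype, a log2 fold change of 0.16 (SE 0.26, limma adjusted p = 0.966) that ran from 0.04 without KO_540C to 0.27 without KO_540G. On 1417278_a_at all 4 KO ratios at E16.5, 1.07 to 1.24, lay above both wildtype ratios, 0.949 and 1.05, while at E14.5 they were 1.05 to 1.34 and overlapped with wildtype at 0.922 and 1.08. The log2 fold changes there were 0.25 on the earlier day and 0.18 on the later, and those of the remaining 2 probe sets lay between -0.12 and 0.09. The 4 probe sets did not move as one, with pairwise r of -0.490 to 0.545 over the 12 arrays.

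Notum (chr11:120653788-120661193), the secreted Wnt deacylase, stayed within the wildtype range or near it. The KO ratios on its only probe set were 0.943, 1.03, 0.892 and 0.936 at E14.5, against 0.927 and 1.07 in wildtype. The E16.5 ratios were 1.002, 0.865, 0.854 and 0.972 in KO and 0.909 and 1.09 in wildtype. The log2 fold changes of -0.07 and -0.11 (SE 0.12) came with the narrow intervals of 0.799 to 1.13 and 0.777 to 1.10 as ratios (limma adjusted p = 0.966 and 0.723).

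Rnf43 and Znrf3, the paired membrane E3 ligases that clear Frizzled, had the lowest KO values of the 19 probe sets. Rnf43 (chr11:87663087-87735539) on 1427008_at read 0.425, 0.455, 1.06 and 0.515 in KO at E14.5, in the order KO_540C, KO_540G, KO_615A and KO_615B, against 1.002 and 0.998 in wildtype. Pancreas KO_615A stood at the wildtype level while the other 3 KO were well below it. At E16.5 the KO ratios were 0.852, 0.530, 0.582 and 0.682, in the order KO_591D, KO_541J, KO_541L and KO_591C, against 1.06 and 0.938 in wildtype, and the groups did not overlap. The log2 fold changes were -0.81 (SE 0.31, 95% interval -1.48 to -0.14) at E14.5 and -0.62 (SE 0.31, -1.29 to 0.05) at E16.5, from KO means of 0.613 ± 0.298 and 0.661 ± 0.142 (SD, n = 4), and neither passed over the array (limma adjusted p = 0.653 and 0.351). Leaving out 1 array at a time moved these figures both ways. Without KO_540G the E14.5 value was -0.70 (limma adjusted p = 0.885) and without WT_522C it was -0.82 (limma adjusted p = 0.9999), and in both fits it was no longer under 0.05 before adjustment. Without KO_615A the E14.5 value was -1.11 (limma adjusted p = 0.097) and the E16.5 value, fitted with the same pooled spread, was -0.62 (limma adjusted p = 0.0875).

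Znrf3 (chr11:5276329-5444847) on 1435608_at was low in the same 3 pancreata as Rnf43 at E14.5. Its KO ratios at E14.5 were 0.608, 0.388, 1.13 and 0.688, against 0.912 and 1.09 in wildtype, with KO_615A again the one that was not low. The E16.5 KO ratios were 0.676, 0.467, 0.691 and 0.952, against 1.09 and 0.914 in wildtype, and 3 of 4 KO lay below both wildtype pancreata. The exception was KO_591C, whereas the highest KO ratio of Rnf43 on that day was in KO_591D. The KO means of 0.702 ± 0.309 and 0.697 ± 0.199 (SD, n = 4) gave log2 fold changes of -0.61 (SE 0.35, limma adjusted p = 0.805) and -0.56 (SE 0.35, limma adjusted p = 0.480). Without KO_540G the E14.5 value was -0.36, and without KO_615A it was -0.87. The other Znrf3 probe set, 1437646_at, was at 0.937 ± 0.120 and 0.942 ± 0.135 in KO (SD, n = 4), with log2 fold changes of -0.10 and -0.09, so the low readings were those of 1 probe set of the gene, although both probe sets tended to vary together over the 12 arrays (r = 0.643). Across the same arrays Rnf43 and Znrf3 1435608_at had r = 0.839, a description over points that share a day's divisor and include 8 KO pancreata.

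Cell type markers differed between these pancreata as well. Median log2 ratios were taken over 12 of 12 epithelial markers (such as Cdh1, Epcam and Krt19), 9 of 12 acinar markers (such as Cpa1 and Prss2), 14 of 14 mesenchymal markers, 10 of 12 endocrine markers and 8 of 10 markers of neurons and glia. The epithelial median at E14.5 was -0.28, -0.64, 0.12 and -0.50 in KO_540C, KO_540G, KO_615A and KO_615B, against -0.07 and 0.06 in wildtype. KO_615A, in which Rnf43 and Znrf3 were not low, was thus the only E14.5 KO pancreas above both wildtype medians. Of the 12 epithelial markers, 10 had negative log2 fold changes on that day and 2, Krt19 and Pdx1, positive ones. None of the 12 passed then in limma (0.0111% of all probe sets did). At E16.5 the epithelial median was -0.38, -1.16, -0.996 and -0.39 in KO_591D, KO_541J, KO_541L and KO_591C, against -0.44 and 0.34 in wildtype, so 2 of 4 KO lay below both. All 12 epithelial markers had negative log2 fold changes at E16.5, and 1, Spint2, passed (2.62% of all probe sets did). The acinar median ranged from -1.25 to 0.40 in KO and from -0.04 to 0.04 in wildtype at E14.5. At E16.5 it ranged from -3.46 to -1 in KO and from -0.01 to 0.01 in wildtype. On that day 2.62% of all probe sets passed in limma. All 9 acinar markers had negative log2 fold changes then and 5 passed, among them Prss2 (log2 fold change -2.14, limma adjusted p = 0.0039). The mesenchymal median of KO pancreata ran from 0.14 to 0.45 on the earlier day, against -0.04 and 0.04 in wildtype. On the later day it ran from -0.03 to 0.65, against -0.003 and 0.002. Of its 14 markers, 10 had positive and 4 negative log2 fold changes at E16.5. The 2 that passed, both higher, were the matrix genes Col3a1 and Lum. The endocrine median of KO pancreata ran from 0.10 to 0.90 and from -0.02 to 1.26 on the 2 days, against -0.10 and 0.09 and -0.02 and 0.02 in wildtype. Of its 10 markers, 8 had positive and 2 negative log2 fold changes at E14.5, and all 10 were positive at E16.5. None of the 10 passed on either day. The median of the neuron and glia markers ran from -0.01 to 0.54 in KO at E14.5, against -0.06 and 0.05 in wildtype. At E16.5 it ran from 0.27 to 1.77 in KO, against -0.13 and 0.12 in wildtype. On that day 7 of the 8 genes had positive log2 fold changes and 1, Ret, a negative one (KO mean 0.744). The 2 that passed, Nefl and Elavl4, were both higher (0 to 4 passed over the alternatives). Over the 12 arrays the r of Rnf43 with the medians of 10 marker lists ran from -0.763 (endocrine) to 0.639 (epithelium), with -0.722 for mesenchyme, -0.663 for leukocytes, -0.626 for endothelium and -0.595 for neurons and glia. Over the 8 KO arrays alone it was -0.569 for endocrine, 0.527 for epithelium and -0.503 for mesenchyme. With the acinar median it was 0.503 over the 12 arrays and 0.229 over the 8 KO arrays. For Znrf3 1435608_at the range over the 10 lists was -0.774 (mesenchyme) to 0.675 (epithelium), with -0.426 for endocrine and 0.418 for acinar. Over the 8 KO arrays alone its r was -0.644 for mesenchyme, 0.652 for epithelium, -0.0865 for endocrine and 0.165 for acinar. The part of tissue composition in the Rnf43 and Znrf3 values was not tested. The plot by single pancreas sets the 2 genes over the marker medians.

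**Figure D2:**
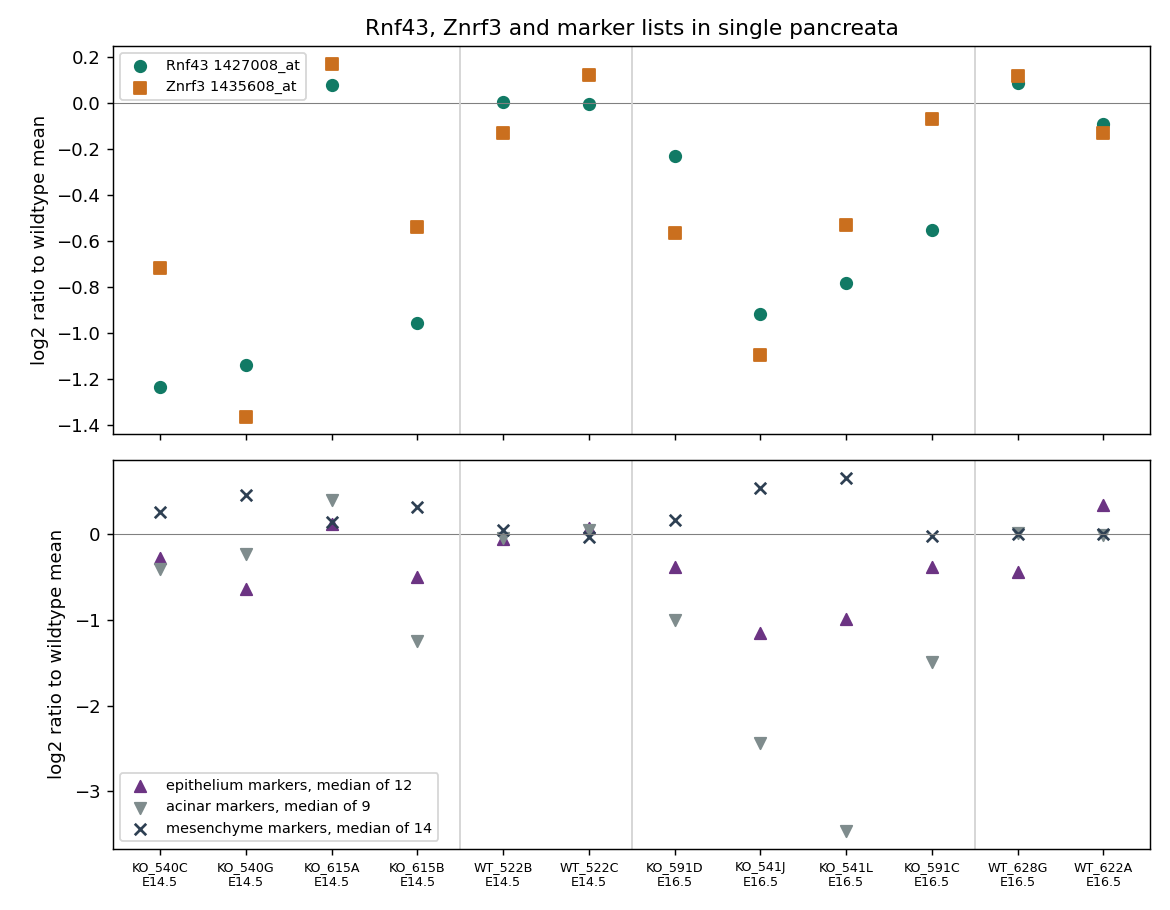
Log2 ratio to the day's wildtype mean (y axes) in each of the 12 pancreata (x axis): Rnf43 1427008_at and Znrf3 1435608_at above, and the median of the epithelial, acinar and mesenchymal markers below. KO_615A lies above 0 for both genes and for the epithelial and acinar medians, and KO_541J and KO_541L have the lowest acinar medians, -2.44 and -3.46.

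Lgr5 (chr10:115450314-115587780), the R-spondin receptor, was near the wildtype mean on both probe sets. On 1444519_at the E14.5 KO ratios were 0.845, 1.32, 1.06 and 1.03, against 1.0003 and 0.9997 in wildtype. By E16.5 the KO ratios were 1.19, 1.03, 0.976 and 1.0047, against 1.0049 and 0.995 in wildtype, and 2 of 4 KO lay above both. Wildtype ratios this close together come from only 2 animals and say little of the spread among wildtype embryos. The log2 fold change was 0.07 (SE 0.15) at both days (limma adjusted p = 0.975 and 0.896), and on 1450988_at, which tracked the first probe set over the 12 arrays (r = 0.765), it was -0.08 and 0.03.

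Sp5 (chr2:70474923-70477726), the repressor shown above with Tcf core letters in its promoter window, had all 4 KO pancreata above both wildtype pancreata on both days. No other of the 19 probe sets did. The share of all probe sets with such separation on both days was not counted. The KO ratios on 1422914_at were 1.22, 1.07, 1.0246 and 1.14 at E14.5, against 0.983 and 1.0166 in wildtype, so that KO_615A lay above the higher wildtype pancreas by very little. At E16.5 they were 1.11, 1.07, 1.18 and 1.18 in KO, against 1.05 and 0.948 in wildtype. The shift was small, with KO means of 1.12 ± 0.0853 and 1.13 ± 0.0548 (SD, n = 4), log2 fold changes of 0.15 (SE 0.10) and 0.18 (SE 0.10) and intervals, as ratios, of 0.959 to 1.29 and 0.978 to 1.32 (limma adjusted p = 0.842 and 0.396). Separation within a day was common on these arrays. At E14.5 1 of 19 probe sets (Sp5) had all KO above both wildtype, against 8.17% of all probe sets, and 0 of 19 had all KO below, against 8.06%. At E16.5 2 of 19 (Sp5 and Nkd1 1417278_a_at) had all KO above, against 14.5%, and 2 of 19 (Rnf43 and Tcf7l2 1426639_a_at) had all KO below, against 11.1%.

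**Figure D3:**
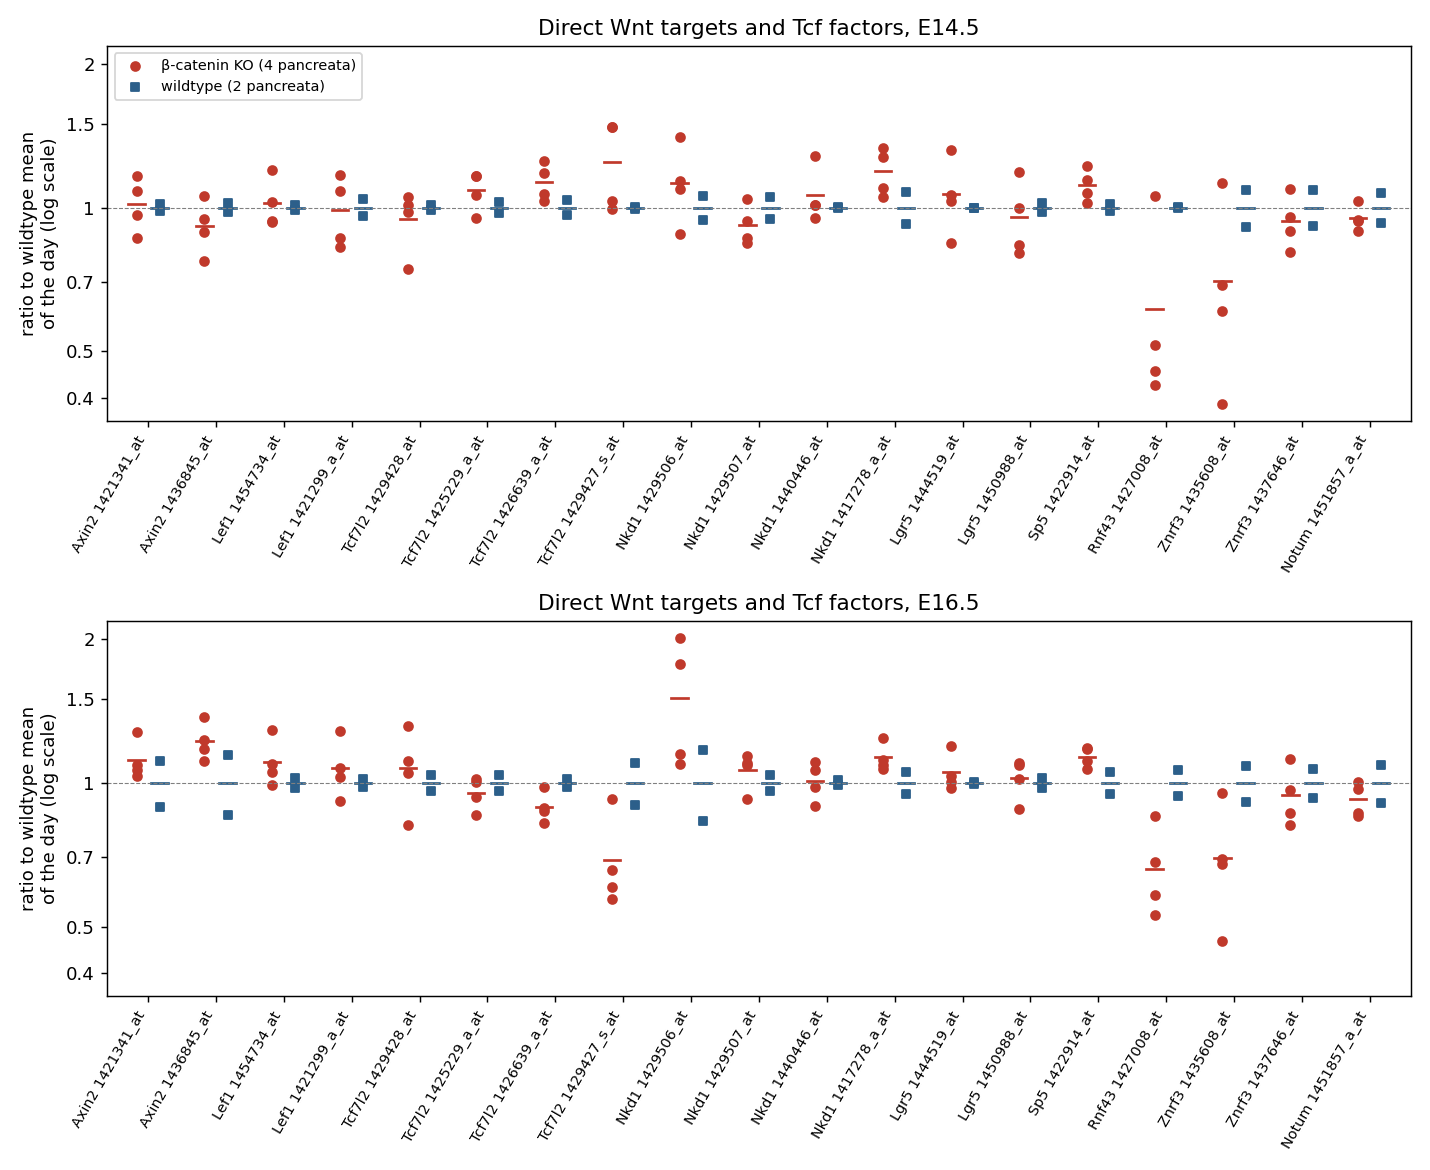
Ratio to the wildtype mean of the day (y axis, log scale) on the 19 probe sets (x axis) at E14.5 (upper panel) and E16.5 (lower panel), with KO pancreata as circles, wildtype as squares and group means as bars. Rnf43 and Znrf3 1435608_at reach down to 0.425 and 0.388 at E14.5, Nkd1 1429506_at up to 2.01 at E16.5, and Tcf7l2 1429427_s_at lies at or above 0.995 in KO at E14.5 and at or below 0.927 at E16.5.

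Lef1 (chr3:131110297-131224357), a Tcf factor that is itself a Wnt target, gave no separation of the groups. On 1454734_at the KO ratios were 1.03, 1.20, 0.931 and 0.939 at E14.5, against 1.01 and 0.989 in wildtype. Those of E16.5 were 1.29, 1.05, 0.988 and 1.09 in KO and 0.977 and 1.02 in wildtype. The log2 fold changes were 0.03 and 0.14 (SE 0.13), with intervals of 0.839 to 1.24 and 0.906 to 1.34 as ratios (limma adjusted p = 0.989 and 0.683). The other probe set, 1421299_a_at, gave -0.03 and 0.09.

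Tcf7l2 (chr19:55741797-55933659), the Tcf factor best known from intestinal epithelium, read differently on its 4 probe sets, and on 2 of them the KO mean lay above 1 at E14.5 and below 1 at E16.5 with a p under 0.05 for the difference before adjustment only. The suffix _s_at marks probes that match more than 1 transcript. On 1429427_s_at the KO ratios at E14.5 were 0.995 and 1.03 in KO_540C and KO_540G and 1.48 and 1.48 in KO_615A and KO_615B, against 0.995 and 1.005 in wildtype. The KO pancreata thus split by the number in their names, whose meaning was not stated. At E16.5 the ratios were 0.606, 0.927, 0.571 and 0.656 in KO and 0.899 and 1.10 in wildtype, with KO_541J between the wildtype pancreata and the other 3 KO below both. The log2 fold change was 0.29 (SE 0.21) for E14.5 and -0.55 (SE 0.21, 95% interval -1.02 to -0.08) at E16.5 (limma adjusted p = 0.881 and 0.211).

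On 1426639_a_at the same order of days was seen at a smaller size. The E14.5 KO ratios were 1.07, 1.25, 1.03 and 1.18, against 1.04 and 0.964 in wildtype. At E16.5 they were 0.981, 0.874, 0.886 and 0.824 in KO, all below the 0.982 and 1.02 of wildtype, and the log2 fold changes were 0.18 and -0.17 (SE 0.11, limma adjusted p = 0.824 and 0.488). On 1429428_at, by contrast, the E14.5 KO ratios were 1.015, 0.743, 0.980 and 1.05, against 0.987 and 1.01 in wildtype. At E16.5 they were 1.05, 0.818, 1.32 and 1.11 in KO and 0.963 and 1.04 in wildtype, with log2 fold changes of -0.09 and 0.08 (SE 0.18, limma adjusted p = 0.974 and 0.892). The fourth, 1425229_a_at, gave 0.11 and -0.07. Over the 12 arrays, pairwise r was 0.646 to 0.708 among 1425229_a_at, 1426639_a_at and 1429427_s_at. On each of these the KO mean lay above 1 at E14.5 and below 1 at E16.5. With 1429428_at their r was -0.664 to -0.416, so no single Tcf7l2 value stands for the gene.

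The KO effect at E16.5 minus that at E14.5 was tested in the same fit. None of the 19 probe sets passed, against 0.349% of all probe sets, and before adjustment 2 of 19 were under 0.05, both of Tcf7l2, against 10.4%. For 1429427_s_at the difference was -0.85 (SE 0.30, 95% interval -1.51 to -0.18, limma adjusted p = 0.333), and for 1426639_a_at it was -0.35 (SE 0.15, -0.67 to -0.02, limma adjusted p = 0.447). For Rnf43 it was 0.19 (SE 0.43) and for Znrf3 1435608_at 0.05 (SE 0.49), estimates whose errors leave wide room on both sides. Axin2 on 1436845_at had a difference of 0.43 (SE 0.21, limma adjusted p = 0.510) and Sp5 one of 0.03 (SE 0.14, limma adjusted p = 0.980).

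The rest of the pathway was read on 1 probe set per gene, chosen by its name. Some listed symbols are older names of genes listed under a newer one, so not every unmeasured symbol is a missed gene. From 46 listed symbols of other direct targets, 41 genes were measured, and 0 passed in limma on either day. Before adjustment 3 were higher and 3 lower in KO at E14.5, and 7 higher and 2 lower at E16.5 (6.86% and 16.6% of all probe sets on the 2 days), with median log2 fold changes of 0.05 and 0.08. The smallest p values at E14.5 were those of Mycn, a growth-promoting transcription factor, at 0.509 ± 0.146 in KO (limma adjusted p = 0.406), and Sox9, a transcription factor of pancreatic progenitors, at 0.665 ± 0.133 (limma adjusted p = 0.535; both SD, n = 4). At E16.5 they were those of Bambi, a decoy receptor of the TGF-β family, at 2.40 ± 0.949, and Fgf18, a secreted growth factor, at 1.64 ± 0.361 (SD, n = 4, limma adjusted p = 0.0782 and 0.0907).

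From 24 listed symbols of the nuclear complex, 23 genes were measured, and 0 passed in limma at E14.5. On that day 3 were higher and 3 lower before adjustment (6.86% of all probe sets). At E16.5 1 gene fell (2.62% of all probe sets passed). This was Tle6, a protein related to the Groucho corepressors. Its KO ratios at E16.5 were 0.468, 0.323, 0.297 and 0.385, against 0.720 and 1.28 in wildtype, and all 4 KO lay below both. At E14.5 they were 0.876, 0.820, 0.968 and 0.815 in KO and 0.994 and 1.01 in wildtype. The log2 fold change was -1.40 (SE 0.22, limma adjusted p = 0.00829) at E16.5 and -0.20 (SE 0.22, limma adjusted p = 0.936) at E14.5, and the difference between the days, -1.20 (SE 0.31), did not pass (limma adjusted p = 0.150). The Tle6 call held in 16 of 21 alternatives and was lost in 5, among them quantile normalization (log2 fold change -0.92, limma adjusted p = 0.371) and leaving out the wildtype pancreas WT_622A (-0.99, limma adjusted p = 0.0592). The smallest p values at E14.5 were those of Nlk, a kinase that phosphorylates Tcf factors, at 0.543 ± 0.148 and of the corepressor Ctbp2 at 0.709 ± 0.142 (SD, n = 4, limma adjusted p = 0.521 and 0.590). Next after Tle6 on the later day was Cby1, which binds β-catenin and antagonises it, at 1.24 ± 0.0884 (SD, n = 4, limma adjusted p = 0.170).

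From 30 listed symbols of the degradation complex and its control, 29 genes were measured, and 0 passed in limma on either day. Before adjustment 0 were under 0.05 at E14.5 (6.86% of all probe sets) and 4 higher and 5 lower at E16.5 (16.6%). The medians were -0.01 and 0.01. Axin1, the constitutive relative of Axin2, was at 0.824 ± 0.0715 at E14.5 (SD, n = 4, limma adjusted p = 0.727), and the ubiquitin ligase Siah2 at 0.783 ± 0.193 (SD, n = 4, limma adjusted p = 0.753). Among the E16.5 values, Lgr4, a relative of Lgr5 that also binds R-spondins, was at 0.573 ± 0.124, and Rnf146, the ligase that removes tankyrase-modified Axin, at 1.34 ± 0.125 (SD, n = 4, limma adjusted p = 0.132 and 0.154).

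The 2 probe sets with the smallest p among the 19 were set against all other genes with a single symbol, by Pearson's r of the log2 ratios over the 12 arrays. Nearest to Tcf7l2 1429427_s_at were Casp9, an initiator caspase (r = 0.946), Gphn, the scaffold gephyrin (r = 0.945), and Slc2a1, a glucose transporter (r = 0.928). The E14.5 KO mean of Slc2a1, for instance, was 1.29 ± 0.305 and the E16.5 one 0.617 ± 0.0847 (SD, n = 4). Nearest to Rnf43 were Stt3b, a catalytic subunit of oligosaccharyltransferase (r = 0.956), Clic6, a chloride intracellular channel protein (r = 0.951), and D630039A03Rik (r = 0.947), with KO means of 0.465 ± 0.317 on the earlier day and 0.600 ± 0.201 on the later (SD, n = 4). None of these 6 passed on either day (limma adjusted p = 0.255 to 0.896), and the highest of many correlations over 12 arrays is high by the way it was chosen.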

How the data were processed

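RNA of 12 whole embryonic pancreata was amplified in 2 rounds by the authors and hybridised to 1 Affymetrix MOE430 2.0 array each. The authors summarised the arrays with RMA in GeneSpring and deposited linear ratios, each probe set's signal divided by the mean signal of the wildtype arrays of its day. On every probe set the 2 wildtype ratios of a day sum to 2 within 3e-07, so dim and bright probe sets look alike. The day called E14.5 here, after the sample names, is E14.6 in 1 series text. Groups come from the sample names, and nothing states which embryos shared a litter. The number of arrays limits the precision.

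Of 45101 probe sets, 64 Affymetrix controls were left out. Log2 ratios of 45037 were fitted in 4 groups with limma 3.58.1 in R 4.3.3 (8 residual degrees of freedom, 11.7 after moderation), with two-sided p values under Benjamini-Hochberg adjustment across all of these, a limit of 0.05, and 95% intervals from the moderated fit. The script was tested on simulated data. Given in full are probe sets with a p under 0.05 before adjustment in any comparison and at least 1 per gene, picked by name (_at, then _a_at, then _s_at, lowest number first). Genes outside the 10 were named if called, or if among the 2 smallest p values of their list and day. The members and lists were chosen with earlier results of these data known. The settings tried were each day on its own 6 arrays, a trended and robust variance, quantile normalization, median centring, array weights, the name number as a random block (statmod 1.5.0), no _s_at or _x_at probe sets, the methods' t-test, the linear ratio, and each array left out in turn. Promoter windows and gene positions come from RefSeq on GRCm38.p6. Plots used Python 3.11.15 with matplotlib 3.10.9.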

Additional observations from a re-analysis of the deposited data

How the results depend on the processing

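The count of called probe sets among the 19 was 0 under all 21 alternatives for each day and under all 19 for the difference between the days, with 0 to 2, 0 to 3 and 1 to 3 under 0.05 before adjustment. The smallest limma adjusted p was 0.097 for E14.5 and 0.0875 for E16.5, both for Rnf43 without KO_615A, and 0.190 for the difference with array weights. The methods' t-test called 0 of 19 on both days, with 0 under 0.05 before Benjamini-Hochberg adjustment. Counts over all probe sets moved far more, from 0 to 30 at E14.5, from 0 to 2862 at E16.5 and from 6 to 580 for the difference. Of 668 values of the 11 probe sets given in full, 636 kept their sign and 32 changed it, none with a main log2 fold change over 0.16 in size. Of 488 values of the other 8 probe sets, 25 changed sign. Quantile normalization and array weights turned Axin2 1421341_at at E14.5 to -0.00205 and -0.0476, Lef1 1454734_at at E14.5 to -0.00167 and -0.0348, and the Lgr5 1444519_at difference to 0.0061 and 0.0135. The Znrf3 1435608_at difference became -0.171 with array weights and -0.00571 on the linear ratio. The causes of these changes were not tested.

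Leaving out 1 array at a time gave log2 fold changes of -0.0487 (without KO_540G) to 0.0959 for Axin2 1421341_at at E14.5, -0.00080 (without WT_622A) to 0.321 at E16.5 and -0.0197 (without WT_622A) to 0.302 for its difference, -0.0514 (without KO_540G) to 0.0707 for Lef1 1454734_at at E14.5, -0.145 to 0.0212 (without KO_540G) for Tcf7l2 1429428_at at E14.5 and -0.0222 (without KO_541L) to 0.206 at E16.5, and -0.0355 (without KO_540G) to 0.180 for Lgr5 1444519_at at E14.5 and -0.113 to 0.103 (without KO_540G) for its difference. For the Sp5 difference they ran from -0.0471 (without WT_622A) to 0.104, for the Znrf3 1435608_at difference from -0.204 (without KO_540G) to 0.308, and for Notum from -0.176 to 0.0337 (without WT_522C) at E14.5, from -0.244 to 0.0194 (without WT_622A) at E16.5 and from -0.173 to 0.0907 (without WT_622A) for the difference. With 1 wildtype array left, that array was taken to vary like the other groups.

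Tle6 at E16.5, tried after its call was seen, lost its call in 5 of 21 alternatives (limma adjusted p = 0.0754 with a trended and robust variance, 0.0860 with the day on its own 6 arrays, 0.371 after quantile normalization and 0.0592 without WT_622A, and 0.330 with the methods' t-test after Benjamini-Hochberg adjustment). The count of called acinar markers at E16.5 ran from 0 to 6, of mesenchymal markers from 0 to 4. No paired analysis was possible because KO and wildtype arrays share no number in their names. As a random block these numbers had a consensus correlation of -0.0876. A filter on dim probe sets and another background correction could not be run on ratios.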
